A study of Cricetulus griseus with 24 samples.

Results

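The genes described here are the inorganic ion and metal solute carriers expressed by LR73 phagocytes. They were chosen by name and then by level, with earlier results of these data known. Every gene whose symbol begins with Slc4a, Slc8a, Slc9a, Slc11a, Slc24a, Slc26a, Slc30a, Slc39a, Slc40a or Slc41a was taken. A gene was kept when its mean reached 0.5 CPM (the gene's counts scaled to a common library total) in at least 1 of the 6 sample groups. Of 26776 gene names in the count tables, 68 matched these families and 37 were kept. Among the 37 are 35 transporters. The other two, Slc4a1ap (the adaptor protein kanadaptin) and Slc9a3r1 (the scaffold protein NHERF1), only share a prefix with them. Just inside the threshold lay Slc24a1, with a highest group mean of 0.59 CPM, and just outside it lay Slc39a4, with 0.42 CPM.

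LR73 is a hamster cell line that eats dying cells without being a professional phagocyte, and the labels name it a cultured fibroblast. The first experiment had 4 groups of 4 libraries: cells alone (control), cells with cytochalasin D, a drug that blocks actin filament growth and so the engulfment of particles, cells with apoptotic Jurkat cells, and cells with both. Jurkat is a human T lymphocyte line, and it was killed with ultraviolet light. The second experiment had 2 groups of 4 libraries, wildtype LR73 cells and LR73 cells deficient in Slc12a2, the sodium-potassium-chloride cotransporter. Both groups of the second experiment met apoptotic Jurkat cells for 2 h and were sorted for CypHer5E, a dye that marks cells with an acidified meal, so neither group was without corpses. The sources used here do not give the dose of cytochalasin D, how long corpses were present in the first experiment, or how Slc12a2 was disrupted. The labels do not give more than 1 deficient line, so a difference between lines and the loss of Slc12a2 cannot be told apart. Samples of a group are called biological replicates, but nothing says that they came from separate cultures, and p-values then measure only the spread between these samples.

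These carriers set the levels of protons, bicarbonate, zinc, iron, manganese, calcium and magnesium on both sides of cell membranes. Sodium-proton exchangers of the Slc9 family take acid out of the cytosol or set the pH of endosomes. Of the Slc4 bicarbonate carriers, those driven by sodium oppose acid and the chloride-bicarbonate exchangers load it. Slc26 proteins move chloride, sulfate and other anions. Slc30 proteins (ZnT) take zinc out of the cytosol, Slc39 proteins (ZIP) bring it in, Slc11 proteins pump iron and manganese into the cytosol, and Slc40a1 (ferroportin) lets iron leave the cell. In phagocytes these activities meet at the phagosome, where the meal is acidified and its metals are moved across the membrane.

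The first experiment had library totals of 8272232 to 18911353 counts, and the second 22758587 to 28450594. The floor of 3 counts therefore stood at 0.159 to 0.363 CPM and at 0.105 to 0.132 CPM. Slc12a2 itself averaged 24.7 ± 1.59 CPM in deficient cells (SD, n = 4) and 96.7 ± 5.41 CPM in wildtype cells (SD, n = 4), a level of 25.5% with an exact two-sided permutation p of 0.0286, the smallest that 70 assignments allow. Of 10 fibroblast markers 5 or 6 averaged at least 1 CPM in each group. Their sum (3997 to 6906 CPM) was carried by Vim (group means 2961 to 5415 CPM) and Fn1 (653.5 to 1247 CPM), while Col1a1, Col1a2, Thy1 and Fap averaged at most 0.255 CPM in any group. The 5 macrophage markers found in the tables summed to at most 3.74 CPM. T lymphocyte markers (19 genes) summed to 53.9 to 60.8 CPM in control and 58.9 to 65.9 CPM with apoptotic cells, and 11 of the 19 had no count in control against 4 with apoptotic cells. Tcf7, Themis, Lat and Gata3 carried the control sum (means 23.7, 12.9, 11.0 and 8.33 CPM). At least 1 CPM was reached by 5 of the 19 in control and 8 with apoptotic cells, where Lck, Zap70 and Lef1 were added. Cd2, Cd3g and Cd5 had no count in any group. The part of corpse RNA in the results on apoptotic cells was not tested. Control 4, cytochalasin D 1 and apoptotic cells with cytochalasin D 4 stood apart on the third principal component (10.4% of variance), and counts are given with and without them. Less RNA per cell and fewer cells with a transcript cannot be told apart in these bulk libraries.

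Zinc carriers were the most abundant of the 37 genes once counts were divided by counted length. In control cells Slc39a7, a ZIP of the endoplasmic reticulum and Golgi that releases stored zinc, averaged 204 ± 12.2 CPM per kilobase (SD, n = 4). The next was Slc39a1, a ZIP of the cell surface, at 76.2 ± 2.88 CPM per kilobase, well apart from it. Slc30a5, a ZnT of the secretory pathway, followed at 36.3 ± 2.24 CPM per kilobase, and Slc41a1, a magnesium carrier, at 33.7 ± 1.02 CPM per kilobase, within about 1 SD of each other. In wildtype sorted cells Slc39a7 was again first, at 133 ± 3.39 CPM per kilobase (SD, n = 4). Slc30a4, a ZnT of endosomes and lysosomes, came second at 45.7 ± 1.07 CPM per kilobase, then Slc39a1 at 43.3 ± 1.54 CPM per kilobase. The 10 ZIP genes together gave 416.5 ± 18 CPM per kilobase in control and the 6 ZnT genes 102.5 ± 5.65 CPM per kilobase. In wildtype sorted cells the sums were 306.2 ± 4.06 and 143.5 ± 3.9 CPM per kilobase. The 2 experiments were normalized separately, so these levels stand side by side and were not tested against each other.

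**Figure D1:**
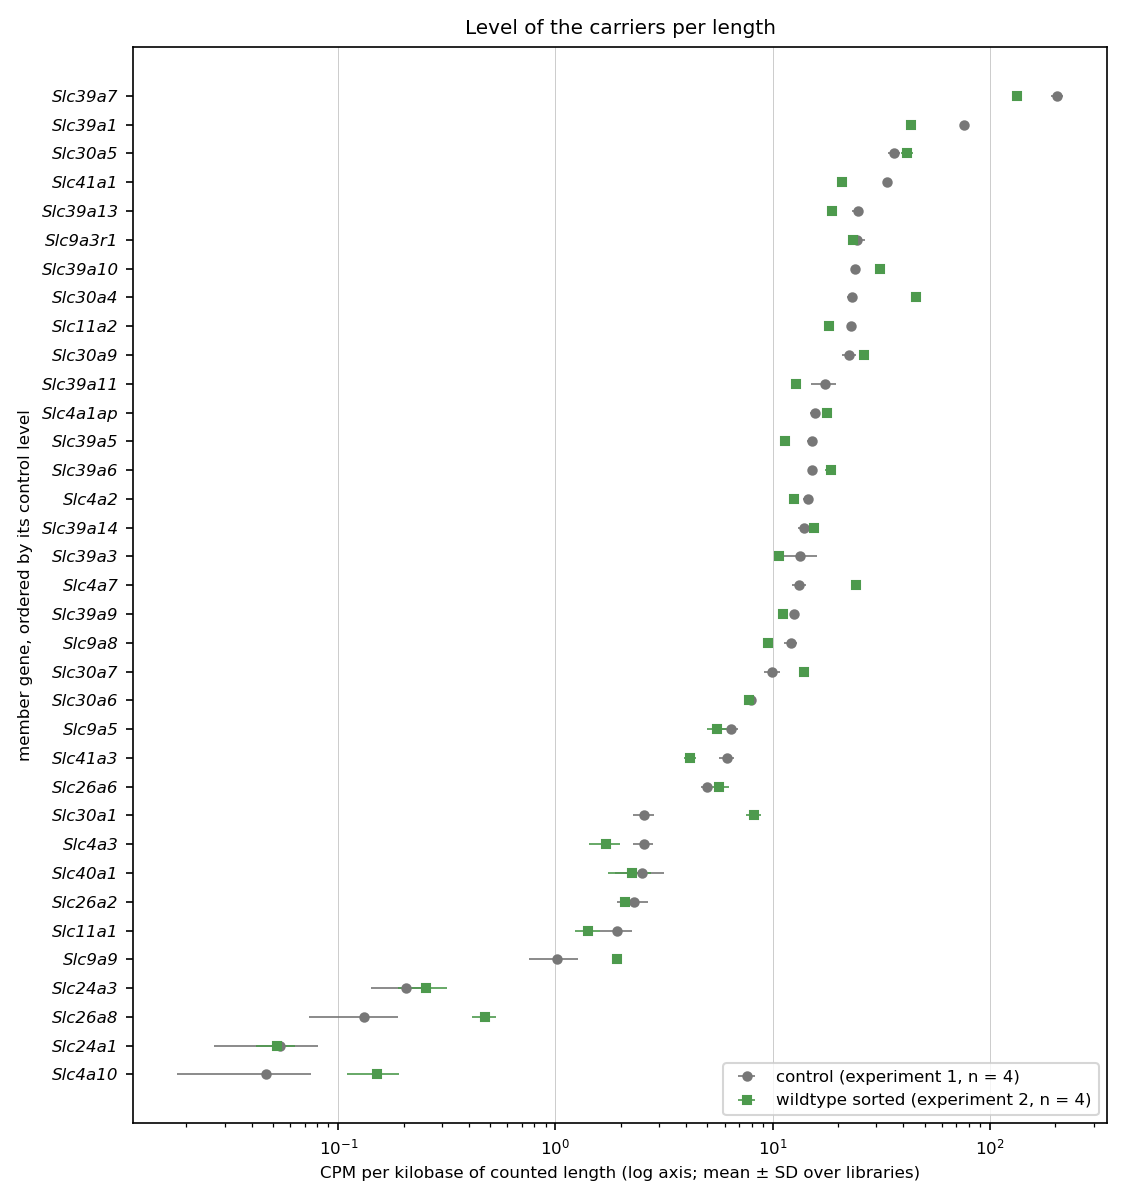
Level of 35 of the 37 genes in CPM per kilobase of counted length (log axis) in control cells (circles) and wildtype sorted cells (squares). Points are means and bars are SD over 4 libraries. Slc39a7 is highest in both groups, and Slc24a1, Slc4a10, Slc26a8 and Slc24a3 are the lowest.

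Among carriers of acid and base, Slc4a2 (the chloride-bicarbonate exchanger AE2) and Slc4a7 (the sodium-bicarbonate cotransporter NBCn1) stood at 14.6 ± 0.785 and 13.2 ± 1.01 CPM per kilobase in control (SD, n = 4), less than 2 SD apart. The iron carriers were unequal: Slc11a2 (DMT1, which brings iron out of endosomes) was at 23.0 ± 0.757 CPM per kilobase, Slc40a1 at 2.51 ± 0.629 and Slc11a1 (NRAMP1, best known from the phagosomes of macrophages) at 1.93 ± 0.33. No sodium-calcium exchanger of the Slc8 family was kept (0 of 3), and Slc8a1 was listed at 0 in 5 of the 6 groups, with a mean of 0.0111 CPM in deficient cells. Of the potassium-dependent Slc24 exchangers 2 of 5 were kept, both near the floor. The other families kept 4 of 10 genes (Slc4), 3 of 10 (Slc26), 5 of 9 (Slc9), 6 of 10 (Slc30), 10 of 13 (Slc39), and both genes of Slc11 and Slc41. In all, 33 of the 37 reached 0.5 CPM in every group. Slc4a10 and Slc24a1 were too low to be tested in the first experiment, and Slc24a1 in the second.

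Genotype gave 20 calls among these genes, and the comparisons of the first experiment gave 3 to 13. Of all genes 42.5% passed for genotype, against 4.56% to 32.5% in the comparisons of the first experiment. The experiments differ in depth and were not tested against each other. In Slc12a2-deficient phagocytes endosomal Slc9a9, the metal carriers Slc11a1 and Slc40a1 and the calcium exchanger Slc24a3 were 1.74 to 2.67-fold lower than in wildtype. Slc9a5, Slc4a3 and Slc4a7 were 1.22 to 1.35-fold higher. Of 36 genes tested, 6 rose and 14 fell (edgeR's quasi-likelihood test, Benjamini-Hochberg adjusted p under 0.05 over all 13050 genes). The 14 include Slc4a10, which was kept only through its level in wildtype sorted cells. The background was high: 42.5% of all genes passed, 21.1% higher and 21.3% lower. In 19 of the 36 genes the wildtype and deficient libraries did not overlap, against 39.7% of all genes tested. The median log2 change was -0.11 for the 36 genes and -0.00 for all genes.

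Among sodium-proton exchangers, Slc9a9 (NHE9, which sets the pH of recycling endosomes) measured 6.78, 7.30, 7.28 and 6.63 CPM across wildtype libraries against 2.85, 3.28, 2.37 and 3.06 CPM across deficient ones. No deficient library came near a wildtype one, and the fitted log2 change was -1.28 ± 0.11 (SE, edgeR adjusted p = 2.701e-07). Slc9a5 (NHE5) went the other way, with 17.3, 22, 21.2 and 20.6 CPM in wildtype and 27.3, 29.6, 24.2 and 28.2 CPM in deficient libraries. Every deficient library was above every wildtype one, and the rise was 1.35-fold (edgeR adjusted p = 0.000566). Slc9a8, of the Golgi, did not pass. Slc9a3r1, the scaffold that tethers exchangers to the actin linker ezrin, fell from 45.3 ± 2.22 to 33.5 ± 1.1 CPM (SD, n = 4 each), or by 0.43 ± 0.053 on the log2 scale (edgeR adjusted p = 9.007e-06).

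Of 4 Slc4 genes tested, 2 fell and 2 rose. Slc4a2, which exports bicarbonate for chloride and so loads acid, measured 47.5, 50.7, 51.9 and 53.1 CPM in wildtype and 37.8, 39.4, 38.8 and 36.4 CPM in deficient libraries. The groups were fully apart, 1.33-fold lower in deficient cells (log2 -0.41 ± 0.052, edgeR adjusted p = 1.14e-05). Slc4a7, which imports bicarbonate with sodium, measured 168, 187, 183 and 176 CPM in wildtype and 236, 200, 220 and 214 CPM in deficient libraries. It was higher in all 4 deficient libraries, 1.22-fold (log2 0.28 ± 0.054, edgeR adjusted p = 0.000534). Slc4a3 (AE3) rose 1.28-fold to 8.70 ± 0.54 CPM with libraries that overlapped. Slc4a10 was near the floor, at 0.78 ± 0.21 CPM in wildtype and 0.35 ± 0.093 CPM in deficient cells, and fell by 1.12 on the log2 scale (edgeR adjusted p = 0.00694). Only wildtype sorted cells brought it to 0.5 CPM, so the rule that kept it favours a fall, and its call is no support. None of the 3 Slc26 anion carriers passed in edgeR or DESeq2, and 1 had an unadjusted p under 0.05. That was Slc26a6, at 36.7 ± 4.12 and 32 ± 3.33 CPM (edgeR adjusted p = 0.078).

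The iron and manganese carriers of the Slc11 and Slc40 families (3 genes) were lower in deficient cells. Slc11a1 measured 4.24, 4.84, 3.66 and 3.73 CPM in wildtype and 2.38, 2.33, 2.26 and 2.04 CPM in deficient libraries. The wildtype set was wider (SD 0.55 CPM) than the deficient one (SD 0.15 CPM). The sets did not overlap, with a 1.82-fold difference (log2 -0.86 ± 0.13, edgeR adjusted p = 8.409e-05). Slc40a1, the exporter of iron, measured 5.88, 3.41, 4.78 and 4.25 CPM in wildtype and 2.68, 2.88, 2.69 and 2.26 CPM in deficient libraries. Its wildtype libraries were spread, yet the lowest was above every deficient one, and the fall was 1.74-fold (edgeR adjusted p = 0.000804). Slc11a2 fell by 0.17 ± 0.062 on the log2 scale, from 43.9 ± 0.91 to 39 ± 3.49 CPM (edgeR adjusted p = 0.0371). That call was lost without any one of 6 of the 8 libraries (wildtype 1, 2, 3 or 4, or deficient 1 or 2), with adjusted p up to 0.099.

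**Figure D2:**
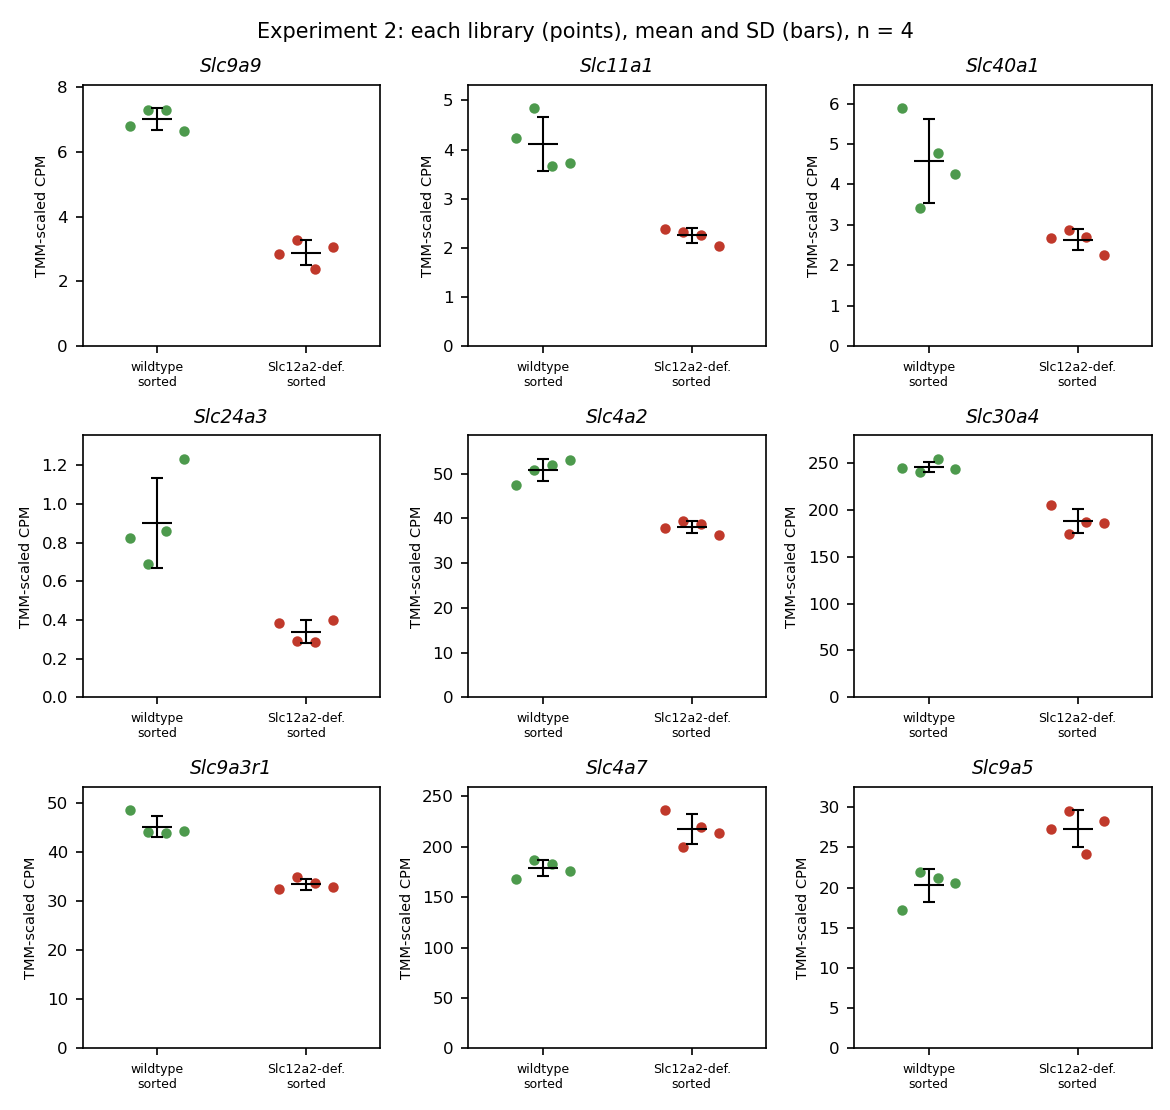
TMM-scaled CPM of 9 genes in each sorted library (points), with the mean and SD of each group of 4 (bars), from 0 on each axis. In the first 7 panels every deficient library lies below every wildtype library, and for Slc4a7 and Slc9a5 every deficient library lies above.

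Zinc carriers were split. Slc30a4 measured 245, 241, 254 and 244 CPM in wildtype and 205, 174, 187 and 186 CPM in deficient libraries. It was lower in all 4 deficient libraries, by 1.31-fold (log2 -0.39 ± 0.050, edgeR adjusted p = 1.39e-05). Slc30a9, a ZnT of mitochondria, rose 1.14-fold to 87.9 ± 3.7 CPM and Slc30a6, the partner of Slc30a5 in the secretory pathway, rose 1.14-fold to 14.1 ± 0.78 CPM. Slc30a1, the exporter at the cell surface, averaged 38.3 ± 3.21 and 33.7 ± 3.61 CPM and did not pass (edgeR adjusted p = 0.071). Of 10 ZIP genes, Slc39a9 rose 1.11-fold and 3 fell, Slc39a3 by 0.29, Slc39a11 by 0.20 and Slc39a10 by 0.19 on the log2 scale. Slc39a7 and Slc39a1, the ZIP genes highest per kilobase, averaged 194 against 201 CPM and 81.1 against 86.7 CPM and did not pass. Slc39a14, a ZIP that also carries iron and manganese, averaged 50.0 against 54.0 CPM (edgeR adjusted p = 0.105). The magnesium carrier of mitochondria Slc41a3 fell by 0.30 on the log2 scale, from 8.62 ± 0.53 to 7 ± 0.59 CPM, and Slc41a1 did not pass. The calcium exchanger Slc24a3, at 0.90 ± 0.23 CPM in wildtype and 0.34 ± 0.059 CPM in deficient cells, fell by 1.41 ± 0.27 on the log2 scale (edgeR adjusted p = 0.000674).

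Of these 20 calls, 11 held in every alternative run. Slc24a3 and Slc4a10 were left out by a filter of at least 1 CPM in at least 4 libraries and held in the rest. Slc30a6 was lost in 9 of 15 alternatives, among them DESeq2 and no filter on low counts. Beside Slc11a2, calls were lost when single libraries were left out for Slc30a6 (wildtype 1, 3 or 4, or deficient 1, 2 or 4), Slc39a9 (wildtype 4, or deficient 1 or 3), Slc39a11 (wildtype 4 or deficient 4), Slc41a3 (wildtype 1 or deficient 1) and Slc39a10 (wildtype 2). Over all alternative runs their adjusted p reached 0.117, 0.0893, 0.0807, 0.0551 and 0.0513. Slc39a10 shares 413 exon bases (9.06% of its counted length) with Dnah7 on the other strand, and counting did not use strand, so reads from the 2 genes cannot be told apart there.

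Of 62 other genes that handle these ions 23 passed for genotype (37.1%, beside 42.5% of all genes). Of 14 iron-handling genes tested, 6 rose and none fell in deficient cells by edgeR or DESeq2, with 3 lower at an unadjusted p under 0.05 in edgeR and 2 in DESeq2. Tfrc, the transferrin receptor that brings in iron, went from 771 ± 13.9 to 967 ± 132 CPM (log2 0.33, edgeR adjusted p = 0.00235). Fbxl5, an iron sensor, Aco1, an iron-responsive RNA-binding protein, and Hmox2, a heme oxygenase, rose by 0.26, 0.21 and 0.20 on the log2 scale. Pcbp2 and Ncoa4, which deliver iron and break down ferritin, made up the 6, and Ncoa4 was lost without any one of 6 libraries (wildtype 1, 2, 3 or 4, deficient 1 or 4). Among 9 tested genes of sodium, proton and pH handling, 3 rose and 4 fell. Hvcn1, a proton channel of phagocytes, fell from 3.37 ± 0.44 to 1.63 ± 0.32 CPM, and Ezr (ezrin) by 0.30 on the log2 scale. Slc9b1, Ahcyl1 and Chp1 rose by 0.28, 0.21 and 0.20, in every alternative run. Of 10 zinc and copper genes 2 fell, the metalloreductase Steap2 by 0.57 and Sod1 by 0.32. None rose in edgeR or DESeq2, and 1 was higher at an unadjusted p under 0.05. The metallothionein Mt1 averaged 3.53 and 3.06 CPM (edgeR adjusted p = 0.242). Of 21 calcium genes 3 rose and 4 fell. Itpr3, a calcium release channel, had the largest log2 change among those called, at 92.5 ± 9.78 and 46.3 ± 3.93 CPM (log2 -1.001, edgeR adjusted p = 4.001e-08). The calmodulin gene Calm2, Micu3 and Atp2b4 rose by 0.74, 0.42 and 0.31 on the log2 scale. The call of Atp2b4 was lost without wildtype 1 or deficient 3. Of 8 magnesium genes only Cnnm4, a magnesium carrier, passed, with a fall of 0.94 on the log2 scale. List medians were 0.03, -0.13, -0.06, -0.06 and 0.09 in the order iron, pH, zinc and copper, calcium and magnesium, beside -0.00 for all genes.

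Cytochalasin D alone raised Slc4a3, Slc39a14, Slc39a1 and Slc24a3 and lowered Slc39a10. Against control, 5 of 35 genes tested rose and 4 fell (edgeR, adjusted p under 0.05 over 13106 genes). Of all genes, 26.3% passed, 13.5% higher and 12.8% lower, so the share of these carriers was close to the background. Libraries did not overlap for 6 of the 35, against 24.3% of all genes. The median log2 change was 0.02 for the 35 and 0.01 for all genes.

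Slc39a10, a ZIP of the cell surface, went from 108, 108, 104 and 117 CPM in control to 84.4, 83.7, 80.8 and 94.3 CPM with cytochalasin D. No drug library overlapped control. The fall was 1.27-fold (log2 -0.35 ± 0.056, edgeR adjusted p = 4.324e-05), with the overlap of exons with Dnah7 as above. Slc4a3 went from 10.7, 9.94, 11.0 and 8.73 CPM to 13.6, 18.4, 15.1 and 13.6 CPM. All 4 drug libraries were above control, 1.5-fold (log2 0.58 ± 0.11, edgeR adjusted p = 0.000378).

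Among ZIP genes, Slc39a1 measured 145, 155, 158 and 152 CPM in control and 176, 193, 189 and 160 CPM with the drug, and Slc39a14 measured 50.1, 52.0, 47.2 and 44.6 CPM in control and 56.1, 63.6, 57.1 and 55.3 CPM with it. Neither overlapped, and the rises were 1.18-fold and 1.19-fold (edgeR adjusted p = 0.00305 and 0.00637). Slc39a13 fell by 0.15 on the log2 scale and Slc9a5 by 0.26, both with overlapping libraries. Slc24a3 went from 0.73 ± 0.23 to 1.59 ± 0.35 CPM (log2 1.13 ± 0.37, edgeR adjusted p = 0.0253). These last 3 calls were lost without single libraries: Slc24a3 without control 1 or cytochalasin D 1, Slc39a13 without control 2 or 3 or cytochalasin D 3 or 4, and Slc9a5 without control 1, 2 or 4 or cytochalasin D 1, 2 or 3. Over all alternative runs the highest adjusted p were 0.117, 0.150 and 0.143. Slc39a13 and Slc9a5 were also lost with no filter on low counts, and Slc39a13 with the length trend removed. Without the 3 libraries that stood apart 8 calls were made, and Slc24a3 and Slc9a5 were not among them. None of the 6 ZnT genes passed in edgeR or DESeq2, with 1 (Slc30a5, lower) at an unadjusted p under 0.05. The other members of the fixed set gave log2 values of -0.09 (Slc4a2), -0.10 (Slc4a7), -0.12 (Slc11a2), 0.04 (Slc30a1) and 0.24 (Slc40a1), none past the threshold.

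With apoptotic cells present in both groups, cytochalasin D gave 8 higher and 5 lower of 35 tested, where 32.5% of all genes passed, 16.4% higher and 16.1% lower. Libraries did not overlap for 13 of the 35, against 32.1% of all genes. The median log2 change was 0.02, beside -0.00 for all genes. ZnT genes made up 4 of the 8: Slc30a4 went from 111 ± 10.3 to 140 ± 8.59 CPM (log2 0.33, edgeR adjusted p = 0.000435), and Slc30a1, Slc30a7 (of the Golgi) and Slc30a9 rose by 0.34, 0.32 and 0.25. Slc4a7 measured 85.9, 91.9, 79.6 and 91.1 CPM with apoptotic cells alone and 102, 112, 113 and 118 CPM with the drug too. The groups were apart, 1.27-fold (edgeR adjusted p = 0.0012). Slc24a3 rose from 0.52 ± 0.27 to 1.75 ± 0.32 CPM (log2 1.78, edgeR adjusted p = 0.00102), Slc39a14 by 0.32 and Slc39a9 by 0.16 on the log2 scale. Slc39a7 fell from 341 ± 21.1 to 276 ± 27.97 CPM (log2 -0.31, edgeR adjusted p = 0.00265), and Slc39a13, Slc9a5, Slc39a3 and Slc9a3r1 by 0.30, 0.33, 0.44 and 0.34. This comparison shares no library with that of the drug alone. Slc24a3, Slc39a14, Slc9a5 and Slc39a13 passed in both and in the same direction, 4 of the 9 calls for the drug alone and of the 13 here. Of all genes 26.3% passed for the drug alone and 32.5% here. The share of all genes that passed in both was not counted, so this overlap has no background beside it.

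Without the 3 libraries that stood apart 10 calls were made with apoptotic cells present, and Slc30a1, Slc39a3, Slc39a9 and Slc9a3r1 were lost. The same 4 were the calls lost without single libraries: Slc30a1 without apoptotic cells 2 or 4 or the combined treatment 2 or 4, Slc39a3 without apoptotic cells 3 or 4 or the combined treatment 3 or 4, Slc39a9 without the combined treatment 4, and Slc9a3r1 without apoptotic cells 3 or the combined treatment 3 or 4. Over all alternative runs, not only those without a single library, the highest adjusted p were 0.0658, 0.146, 0.126 and 0.102. Here too the log2 change moved with counted length across genes, with Spearman's rho of 0.44 over the 35 and 0.14 over all genes. Slc39a9 was also lost with the length trend removed (edgeR adjusted p = 0.126). Slc4a2 (log2 -0.19), Slc11a2 (0.07) and Slc40a1 (-0.15) did not pass.

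**Figure D3:**
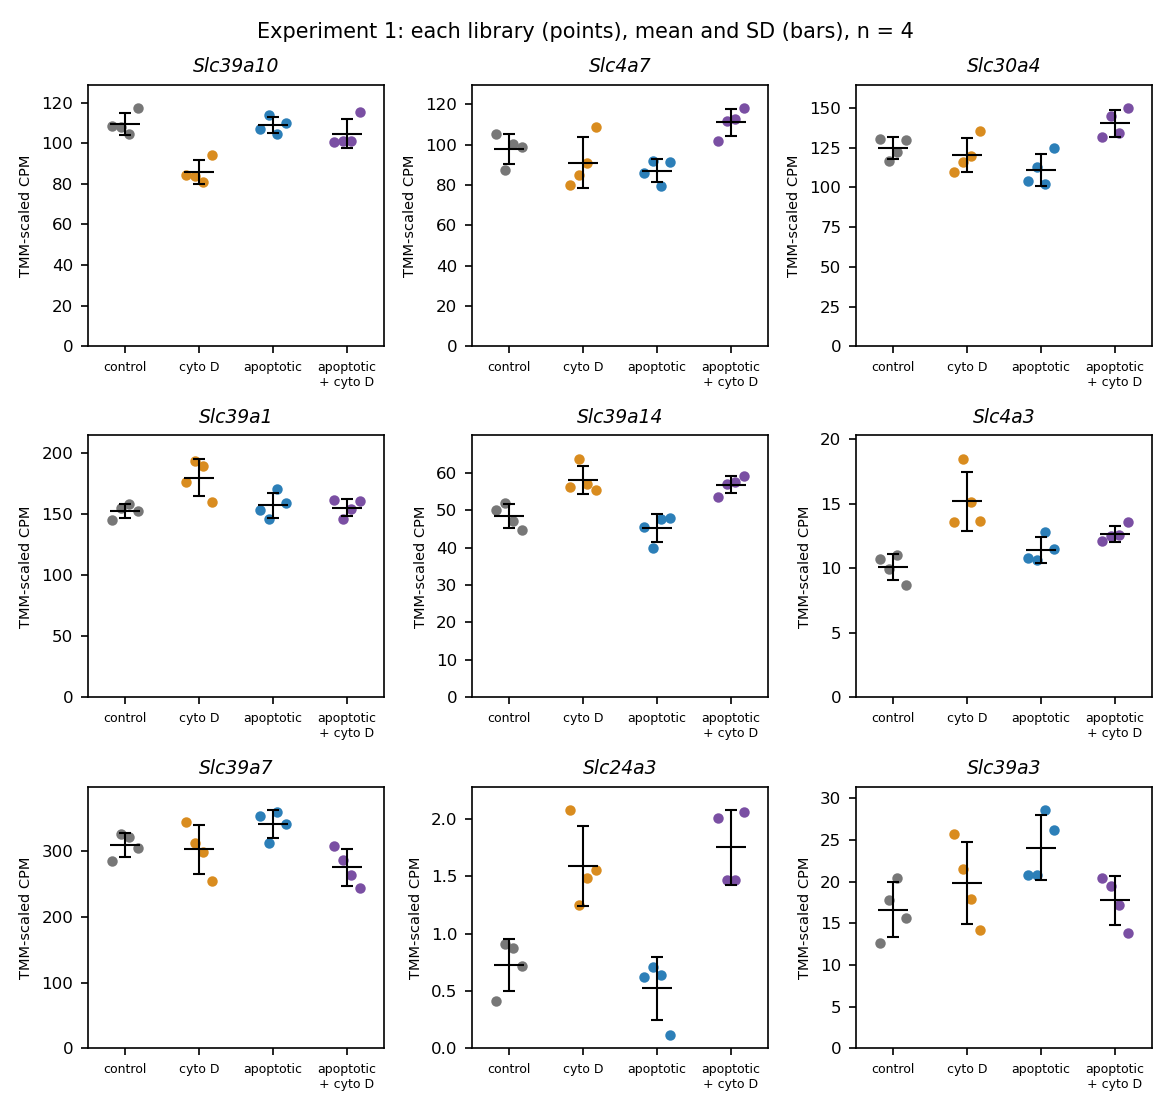
TMM-scaled CPM of 9 genes in each library of the first experiment (points), with the mean and SD of each group of 4 (bars), from 0 on each axis. Slc39a10 is lowest with cytochalasin D alone, and Slc4a7 and Slc30a4 are highest with apoptotic cells and cytochalasin D together.

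Of 64 companion genes 19 passed with cytochalasin D alone (29.7%), close to the 26.3% of all genes. Of 11 zinc and copper genes tested, 3 rose and 2 fell with cytochalasin D alone. Mtf1, the transcription factor that senses zinc, rose from 21.6 ± 0.42 to 31.1 ± 3.28 CPM (log2 0.53, edgeR adjusted p = 0.000171), Slc31a2, a copper carrier, by 0.53 and Ccs, the copper chaperone of Sod1, by 0.39. Atp7b, a copper-exporting ATPase, fell by 0.35. The metalloreductase Steap2 fell by 0.28, a call lost without control 1 or 2 or cytochalasin D 1, 3 or 4. Mt1 averaged 16.0 and 14.5 CPM and did not pass (edgeR adjusted p = 0.372). Of 14 iron genes 2 rose and none fell (edgeR and DESeq2, 1 lower at an unadjusted p under 0.05): Hmox1, the inducible heme oxygenase, went from 136 ± 8.22 to 259 ± 16.95 CPM (log2 0.94, edgeR adjusted p = 3.705e-12) and Fth1, ferritin heavy chain, rose by 0.22. Of 22 calcium genes 3 rose and 5 fell, with Orai1, the pore of store-operated entry, from 25.7 ± 1.83 to 17 ± 2.88 CPM. Of 8 magnesium genes 1 rose and 3 fell, and of 9 pH genes none passed in edgeR or DESeq2 (1 higher at an unadjusted p under 0.05). Without the 3 libraries that stood apart the iron gene Pcbp1 also fell. The list medians lay between -0.09 and 0.09, beside 0.01 for all genes.

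With apoptotic cells alone few of these carriers changed, and all by less than 1.5-fold. Of 35 tested, Slc39a3 and Slc9a3r1 rose and Slc30a1, Slc30a7 and Slc39a9 fell against control (edgeR, adjusted p under 0.05). The 5 calls stand beside 13.7% of all genes, 6.97% higher and 6.68% lower. In 4 of the 35 the libraries did not overlap, against 19.6% of all genes. The median log2 change was -0.03, beside 0.00 for all genes.

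Slc39a3, a ZIP of the cell surface, measured 12.7, 17.8, 20.4 and 15.7 CPM in control and 20.8, 20.8, 28.6 and 26.2 CPM with apoptotic cells. The lowest of the second group was just above the highest control (log2 0.55 ± 0.16, edgeR adjusted p = 0.0263). Slc9a3r1 rose by 0.36 ± 0.11 with overlapping libraries (edgeR adjusted p = 0.033). Slc30a1 measured 12.4, 10.2, 13.3 and 12.0 CPM in control and 10.0, 8.42, 10.6 and 9.27 CPM with apoptotic cells. The libraries overlapped, and the fall was 1.25-fold (edgeR adjusted p = 0.0473), a call lost in 11 of 16 alternatives. Slc30a7 fell by 0.29 ± 0.082 (edgeR adjusted p = 0.022) and Slc39a9 by 0.19 ± 0.046 (edgeR adjusted p = 0.00743), both without overlap. For Slc4a2, Slc39a14 and Slc40a1 the log2 values were 0.03, -0.10 and 0.15. Those of Slc4a7 and Slc11a2 were -0.17 and -0.17, none of them past the threshold.

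The direction of these changes moved with gene length. The 2 genes that rose had counted lengths of 1252 and 1930 bases, and the 3 that fell had 4682, 6031 and 5729. Across the 35 genes Spearman's rho between log2 change and counted length was -0.41, and across all 13106 it was -0.26. Genes in 1 set of libraries share their depth and processing and are not independent, so these are descriptions. For cytochalasin D against control the values were -0.20 and -0.04, and for apoptotic cells under cytochalasin D 0.32 and 0.01. For genotype they were 0.03 and -0.05. With each library's trend with length removed, an alternative chosen after seeing the data, Slc39a3 and Slc9a3r1 were the 2 calls left, and Slc39a9 had an adjusted p of 0.067. The 5 calls also rested on single libraries: 1 was left without control 1 or control 4, and 2 without apoptotic cells 1, 3 or 4. Slc39a9 was kept in each of these. Without apoptotic cells 4, Slc30a4 was gained (edgeR adjusted p = 0.0334), so that 3 calls were made. Without the 3 libraries that stood apart 4 calls were made, and Slc30a1 was lost. The part of length in these changes was otherwise not tested.

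**Figure D4:**
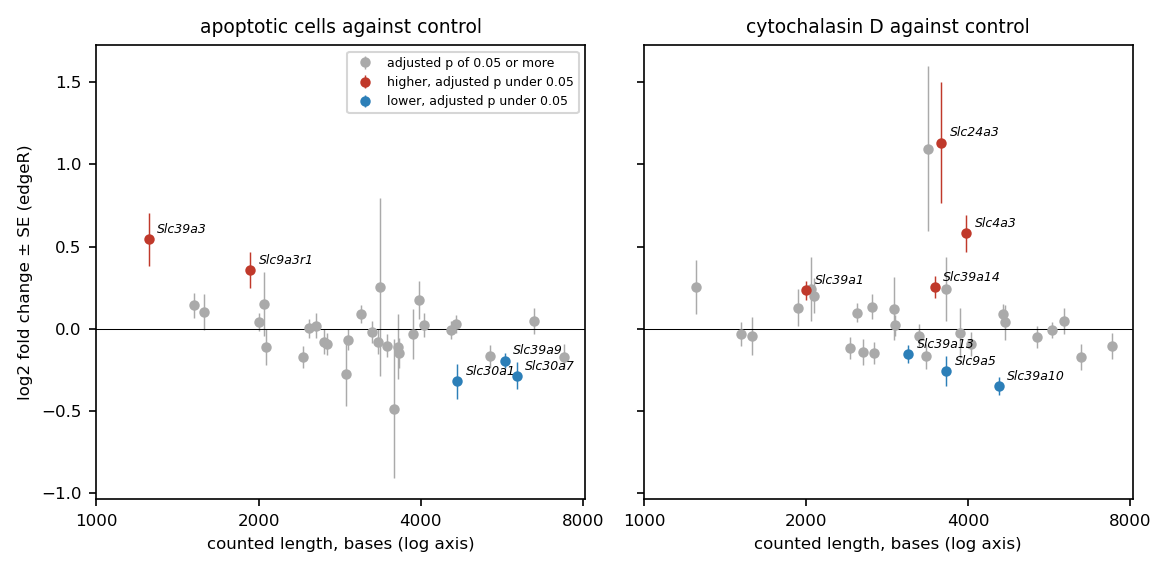
Log2 fold change ± SE of 33 of the 35 tested genes against its counted length (log axis), for apoptotic cells against control (left) and cytochalasin D against control (right). Coloured points passed an adjusted p of 0.05. On the left the 2 higher genes are short and the 3 lower ones long (rho -0.41 over all 35), and on the right rho is -0.20.

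Under cytochalasin D, apoptotic cells gave 3 higher and 1 lower of 35 tested, beside 8.61% of all genes, 4.82% higher and 3.79% lower. Libraries did not overlap for 4 of the 35, against 13.5% of all genes. Slc39a10 rose from 84.4, 83.7, 80.8 and 94.3 CPM to 101, 101, 101 and 115 CPM. Every library with corpses was above every one without, 1.22-fold (log2 0.28 ± 0.057, edgeR adjusted p = 0.00201). Slc4a7 rose by 0.28 ± 0.077 (edgeR adjusted p = 0.0223) and Slc30a4 by 0.22 ± 0.067 (edgeR adjusted p = 0.0439), and Slc39a1 fell by 0.21 ± 0.057 (edgeR adjusted p = 0.0222), each with overlapping libraries. Slc39a10 was the only call of the 4 kept in every alternative run. The count fell to 2 without cytochalasin D 1 or 3 or the combined treatment 4, to 1 without cytochalasin D 2 or the combined treatment 2 or 3, and was 7 without cytochalasin D 4. Without the 3 libraries that stood apart it was 2. The median log2 change was -0.03, beside -0.01 for all genes. Slc4a2 (log2 -0.07), Slc11a2 (0.02), Slc30a1 (-0.02), Slc39a14 (-0.03) and Slc40a1 (-0.24) did not pass.

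The effect of apoptotic cells differed with and without the drug for Slc4a7, Slc30a4 and Slc39a10. The difference, tested as an interaction, was 0.45 ± 0.11, 0.39 ± 0.094 and 0.29 ± 0.079 on the log2 scale (edgeR adjusted p = 0.0204, 0.0223 and 0.0365). No gene of the 35 passed with a lower effect under the drug in edgeR, where 5 had an unadjusted p under 0.05, and DESeq2 called 3 (Slc39a1, Slc39a3 and Slc9a3r1). Of all genes 4.56% passed, 3.03% higher and 1.53% lower. Slc4a7 averaged 98 ± 7.45 CPM in control, 91 ± 12.5 with cytochalasin D, 87.1 ± 5.69 with apoptotic cells and 111 ± 6.69 with both (SD, n = 4 each). Slc30a4 followed the same order, at 125, 120, 111 and 140 CPM. Slc39a10 was at 110 CPM in control, 85.8 with the drug, 109 with apoptotic cells and 105 with both. None of the 35 passed without the 3 libraries that stood apart (5 higher and 3 lower at an unadjusted p under 0.05), or without any one of control 1, cytochalasin D 1, cytochalasin D 2, apoptotic cells 3 or the combined treatment 4. The count was 1 without apoptotic cells 1 or the combined treatment 3, 5 without apoptotic cells 2, and 10 without cytochalasin D 4. DESeq2 called 7 in all, 4 of them higher. Across genes, rho between the difference and counted length was 0.48 for the 35 and 0.20 for all genes.

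**Figure D5:**
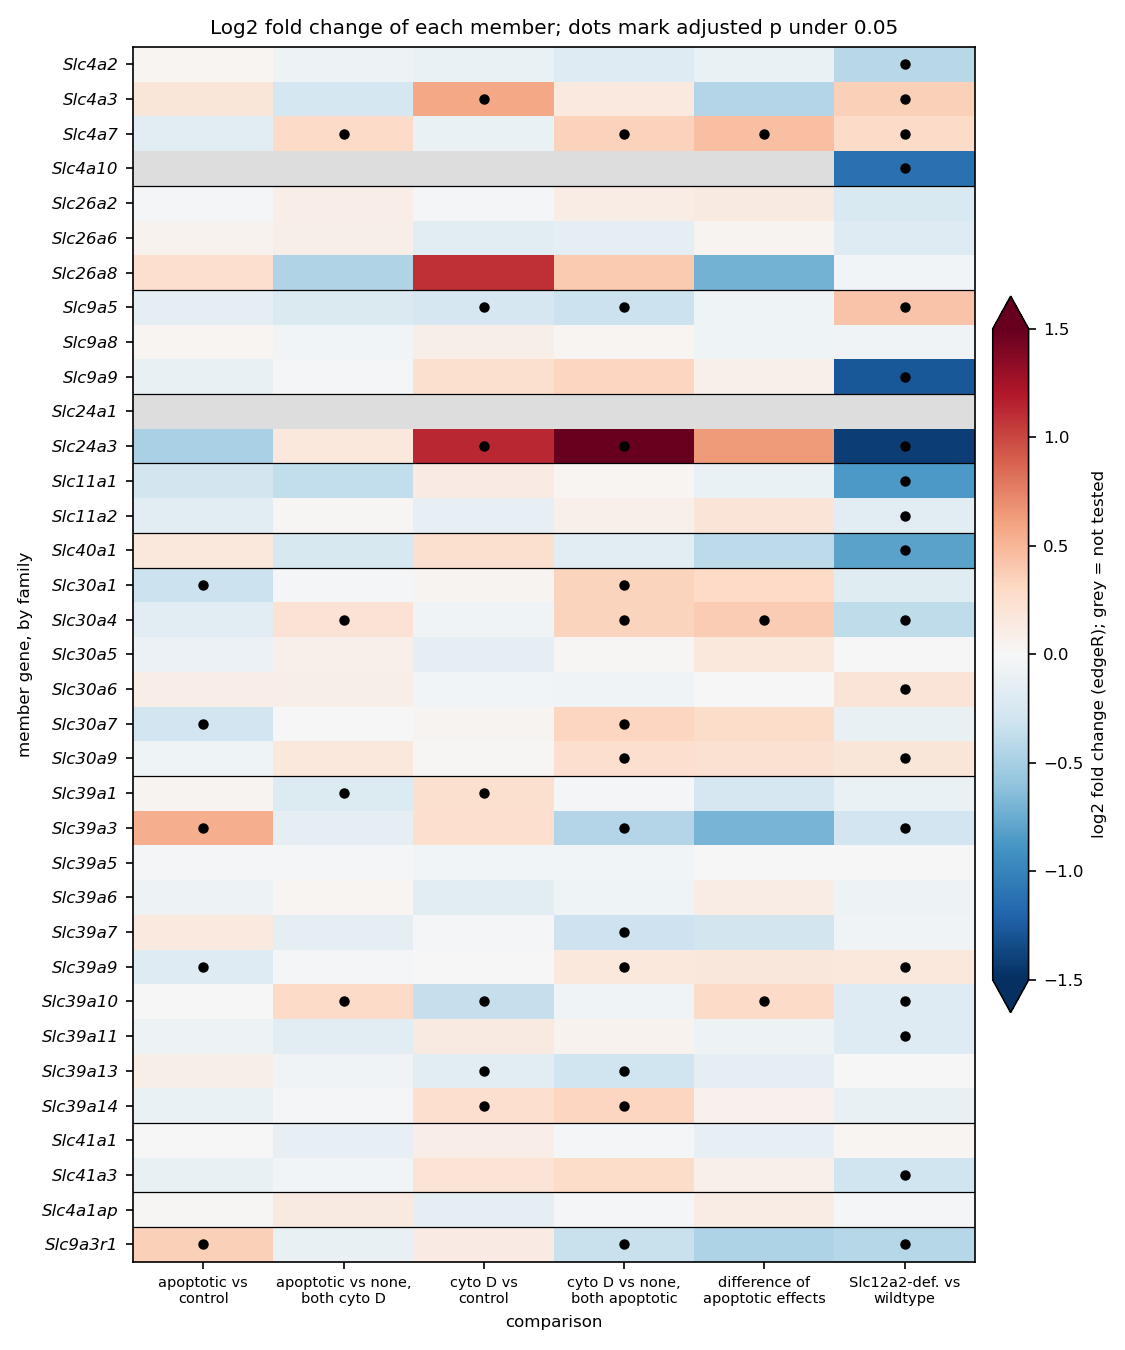
Log2 fold change (colour) of 35 of the 37 genes, by family, in 6 comparisons, and black dots for edgeR adjusted p under 0.05. Grey cells were not tested. The genotype column holds 19 dots, against 3 to 13 in the 5 columns of the first experiment. Of all genes 42.5% passed for genotype, against 4.56% to 32.5% in those 5 comparisons.

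Over the 6 comparisons 27 of the 37 genes passed at least once by edgeR with the settings above and 10 never did. Of all genes, 4.56% to 42.5% passed in the single comparisons. The share of all genes that passed at least once was not counted, so the 27 have no background beside them. The 10 were the Golgi exchanger Slc9a8, the anion carriers Slc26a2, Slc26a6 and Slc26a8, the calcium exchanger Slc24a1, the zinc carriers Slc30a5, Slc39a5 and Slc39a6, the magnesium carrier Slc41a1 and the adaptor Slc4a1ap. Slc26a6 shares 1852 exon bases (28.5% of its counted length) with Celsr3 on the same strand, so its counts are uncertain. Slc30a1 averaged 9.57 to 12.3 CPM in the groups of the first experiment and 33.7 to 38.3 CPM in those of the second, a difference not tested because the experiments were normalized separately.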

How the data were processed

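Paired reads (75 bp, per the labels) were taken from 24 LR73 libraries. The tables hold raw counts: per the file headers, the authors ran featureCounts 1.5.0 on STAR output and counted fragments over exons, without a strand option. Levels per kilobase use the gene lengths in the deposited tables. FastQC and DESeq2 also appear in the submitters' processing notes. Neither a STAR version nor a genome build is stated, so no coordinates or sequences are printed. Counts under a blank name (0.0249% to 0.0445% of the total in the first table, 1.13% to 1.65% in the second) were left out.

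Each table was fitted alone with edgeR 4.0.16 (R 4.3.3): quasi-likelihood F tests between groups, with TMM scaling and genes kept by filterByExpr at a minimum count of 10 and a minimum total of 15. All groups of a table share 1 estimate of spread. SE is the log2 change divided by the root of F, and 95% intervals are 1.96 SE. Biological coefficients of variation were 7.04% and 6.06%. Per-library levels are TMM-scaled CPM, and the 0.5 CPM rule used unscaled CPM. Floors cover counting error only. The procedure was also run on counts simulated with the same spread for every gene and independent libraries, which differs from these data. The outcome is not given here and is no support for the calls.

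The members, 5 companion lists (zinc and copper, iron, calcium, pH, magnesium) and marker lists were chosen with earlier results of these data known. The rule for names was up to 10 called members per direction and comparison, 8 members in all comparisons (among them Slc4a2, Slc4a7, Slc8a1, Slc11a2, Slc30a1, Slc39a14, Slc40a1), and up to 4 called companions per direction. Slc39a3, Slc39a11 and Slc39a10 for genotype, and Pcbp2 and Ncoa4, fall outside the rule and were added after their values were seen. Results of 2 members and 1 companion gene are not reported here by name or drawn, and are part of the counts. Alternatives were DESeq2 1.42.0, relative log expression factors, other filters, a replicate block, an adjusted p under 0.01 and each library left out. Removal of the length trend and of 3 libraries that stood apart were chosen after seeing the data.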

Additional observations from a re-analysis of the deposited data

Results flagged for a closer look

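The following values stood apart and are given without explanation. In 9 of 222 gene and group combinations (4.05%, where chance flags about 1 in 20) the gap between the extreme library and the nearest other one, over the group's range, exceeded Dixon's critical value at 95% for 4 samples. Among wildtype sorted libraries, Slc9a3r1 was high in the first at 48.6 CPM (others 43.9 to 44.4) and Slc39a1 low in the third at 82.1 CPM (others 88.1 to 88.3). Among deficient libraries, Slc39a11 was low in the fourth at 26.5 CPM (others 30.3 to 30.9) and Slc4a10 low in the first at 0.213 CPM (others 0.395 to 0.401). With apoptotic cells, the fourth library was low for Slc24a3 at 0.116 CPM (others 0.622 to 0.713) and for Slc4a1ap at 35.5 CPM (others 42.1 to 42.6). Slc24a1 was high in the second cytochalasin D library at 1.03 CPM (others 0.160 to 0.283). Slc39a10 was high in the fourth library with both treatments at 115 CPM (others 100.7 to 101.3), one of the 3 libraries that stood apart. Slc30a9 was high in the first control library at 72.7 CPM (others 63.1 to 64.6).

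For 3 genes the effect of apoptotic cells differed with and without cytochalasin D by the interaction test: Slc4a7 by 0.453, Slc30a4 by 0.385 and Slc39a10 by 0.293 on the log2 scale (edgeR adjusted p = 0.0204, 0.0223 and 0.0365). In the same order the calls were lost in 8, 8 and 13 of 24 alternatives. All 3 were lost without the 3 libraries that stood apart and at an adjusted p under 0.01.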

How the results depend on the processing

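No named call changed direction under any alternative run: of 54 calls on the carriers 25 were kept throughout, 11 of 20 for genotype and 14 of 34 in the first experiment, and of 85 companion calls 52 were kept. At an adjusted p under 0.01 the counts of carriers called were 1 (apoptotic cells against control, 5 in the report), 5 (cytochalasin D against control, 9), 1 (apoptotic cells under cytochalasin D, 4), 8 (cytochalasin D with apoptotic cells, 13), 0 (difference of effects, 3) and 13 (genotype, 20). In the same order, leaving out 1 library gave 1 to 4, 6 to 13, 1 to 7, 10 to 13, 0 to 10 and 18 to 21. Removing the length trend gave 2 for apoptotic cells against control. Leaving out the 3 libraries that stood apart gave 2 under cytochalasin D and 0 for the difference of effects, for which DESeq2 gave 7 and no filter on low counts gave 7. The causes were not tested beyond the change of samples or threshold. The level of Slc12a2 in deficient cells stayed at 25.0% to 26.2% of wildtype with 1 library left out, where the exact permutation test cannot go below 0.0571. Leaving out 1 library kept 37 or 38 genes.

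Replicate numbers were not taken as pairs: of 24 same-numbered pairs in the first experiment 3 deviated together with a correlation over 0.1, and 7 of 16 libraries correlated best with their own number. The labels number the second experiment in 1 series and pair no libraries, so libraries 9 to 12 and 13 to 16 were set as blocks. Every correlation between wildtype and deficient libraries was positive within a block (0.0367 to 0.141) and negative across blocks (-0.152 to -0.0256), which the labels do not explain. With a replicate block the counts were 5, 7, 4, 13, 3 and 22. For genotype Slc30a1 and Slc26a6 were gained (edgeR adjusted p = 0.00679 and 0.0277). For apoptotic cells against control Slc30a4 was gained (0.0306) and Slc30a1 lost (0.0581), and for cytochalasin D against control Slc39a13 was among 2 lost (0.0618). No filter on low counts gained Slc26a6 and Slc24a1 for genotype. Slc24a1 was kept only through its level in deficient cells, so the rule that kept it favours a rise there.

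Depth limits Slc24a1, Slc24a3, Slc26a8 and Slc4a10, which lay near the floor of 3 counts, and their folds depend on few fragments. Groups of 4 limit all comparisons.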

Other observations

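Of 64 other genes that handle the same ions, 8 passed with apoptotic cells (12.5%, beside 13.7% of all genes), and none of 8 magnesium genes did in edgeR (2 lower at an unadjusted p under 0.05, and DESeq2 called Cnnm3). Slc31a2, a copper carrier of intracellular membranes, fell from 14.4 ± 1.35 CPM in control to 9.92 ± 0.39 CPM with apoptotic cells (SD, n = 4 each, log2 -0.53, edgeR adjusted p = 0.00172), and it was the 1 of 11 zinc and copper genes to pass. Of 14 iron genes 3 rose and 1 fell. Hmox1, the inducible heme oxygenase, rose by 0.29 and Pcbp1, an iron chaperone, by 0.39 on the log2 scale, both in every alternative run. Fth1 rose by 0.16 and Ireb2, an iron-responsive RNA-binding protein, fell by 0.24, and both calls were lost with the length trend removed, at an adjusted p under 0.01, or without any one of control 1, control 4 or apoptotic cells 3 (Ireb2 also without apoptotic cells 4), with adjusted p up to 0.119 and 0.132. Pcbp1 and Pcbp2 are close relatives, as are the calmodulin genes, so their counts are uncertain.

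Itpr3, a calcium release channel, went from 67.8 ± 3.96 CPM in control to 106 ± 5.4 CPM with apoptotic cells (log2 0.64, edgeR adjusted p = 3.499e-07). Under cytochalasin D it averaged 80.1 CPM without and 78.9 CPM with apoptotic cells (log2 -0.02, edgeR adjusted p = 0.884). The difference of the effects was -0.66 (edgeR adjusted p = 0.000117) and was kept in all 24 alternatives. Atp2a3, a calcium pump of the endoplasmic reticulum, had no count in control or cytochalasin D libraries and averaged 1.48 ± 0.58 CPM with apoptotic cells and 1.86 ± 0.39 CPM with both, so no fold is given. The T lymphocyte kinase Lck averaged 0.0259 CPM in control and 3.2 CPM with apoptotic cells, and whether Atp2a3 transcripts came from the corpses was not tested. Trpm7, a magnesium channel, rose with apoptotic cells, both groups under cytochalasin D, by 0.28 on the log2 scale (edgeR adjusted p = 0.00586), a call lost without the 3 libraries that stood apart.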
